A study of Mus musculus with 9 samples.

Results

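The lysosomal genes described here are 43 genes picked by symbol from the count table of 24756 rows, and all 43 have a row there. They comprise 7 cathepsins, 14 other hydrolases, 3 soluble cofactors, 6 membrane proteins, 12 subunits or accessory proteins of the vacuolar proton pump, and the transcription factor gene Tfeb. RNA came from a mouse acute myeloid leukaemia line made by transducing foetal liver cells with the retroviral vectors MSCV-Luc2-IRES-MLL-AF9, which is always expressed, and TRE-tight-DsRED-IRES-FLT3-ITD, which needs doxycycline. Every group therefore carries MLL-AF9 and luciferase. The ON group stayed in 1 µg/mL doxycycline, whereas OFF24 and OFF48 were washed with PBS and grown for 24 h or 48 h in medium free of the drug. Each group has 3 libraries. The labels do not say whether the line is a single clone or whether replicates are separate cultures. The tests below therefore speak of the spread among these samples, which could be technical. Loss of FLT3-ITD, removal of doxycycline itself, the PBS wash and the change of medium cannot be told apart in these groups.

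Lysosomes are acidic organelles in which enzymes take apart proteins, glycans and lipids delivered by endocytosis and autophagy. Their acidity comes from the vacuolar proton pump, whose V1 sector in the cytosol splits ATP to drive protons through the V0 sector in the membrane. TFEB, which growth factor and nutrient signals hold in the cytosol through the kinase complex mTORC1, binds a DNA element centred on CACGTG in many promoters of lysosomal genes. Myeloid cells are rich in lysosomes and lysosome-related granules.

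Library totals ran from 1329296 counts (OFF48 replicate 2) to 4038456 (ON replicate 2), and the floor of 3 counts, up to which a count of 0 leaves a level undetected, is worth 2.26 CPM and 0.743 CPM there. CPM, the unit of the levels below, are read counts scaled to the library total and to factors from the trimmed mean of M-values. They count transcript 3′ ends and are compared between libraries, not between genes. Sums over gene lists, shares in such sums and their ratio are the exception, and describe counts alone. Of 10215 genes tested, 42 are lysosomal genes of this set. Lgmn, the asparaginyl endopeptidase, was nearly absent, with 0 to 2 counts per library, and stayed untested. ON replicate 2 and OFF48 replicate 2 stood furthest from their replicates, with chi-square values per degree of freedom of 6.66 and 6.99, and of 4.55 and 5.45, against the other libraries of their group. The library pairs without them gave 2.10 in ON and 4.25 in OFF48. Flt3 had 2 to 10 counts in each library, and 3′ counts of the mouse gene check neither the vector's transcript nor its loss.

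Promoter sequences show which of these genes carry the letters that TFEB and its relatives bind. RefSeq windows from 250 bases before to 50 bases after a start site (GRCm38.p6) were at hand for 37 of the 43 genes. Of the 37, 14 (37.8%) hold CACGTG and 7 (18.9%) hold TCACGTGA in at least 1 window, against 8.09% and 1.12% of all 27025 genes in the table. Both motifs read the same on both strands, and each TCACGTGA contains a CACGTG. The stretches below, chosen because they hold TCACGTGA or more than 1 CACGTG, are written 5′ to 3′ on the gene's strand with the motifs in capitals.
Ctsa (chr2:164833736-164833808, plus strand): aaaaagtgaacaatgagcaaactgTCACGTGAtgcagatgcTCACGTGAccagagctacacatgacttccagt
Ctsd (chr7:142387895-142387950, minus strand): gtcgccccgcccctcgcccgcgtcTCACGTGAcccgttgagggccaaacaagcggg
Gla (chrX:134601169-134601255, minus strand): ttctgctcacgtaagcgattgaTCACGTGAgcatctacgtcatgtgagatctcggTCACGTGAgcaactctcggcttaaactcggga
Lamp1 (chr8:13159075-13159176, plus strand): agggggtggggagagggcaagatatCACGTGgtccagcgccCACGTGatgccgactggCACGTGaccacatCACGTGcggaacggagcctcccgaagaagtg
Mcoln1 (chr8:3500423-3500504, plus strand): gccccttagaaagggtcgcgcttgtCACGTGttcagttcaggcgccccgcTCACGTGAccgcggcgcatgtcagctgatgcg
Atp6v0b (chr4:117887317-117887390, minus strand): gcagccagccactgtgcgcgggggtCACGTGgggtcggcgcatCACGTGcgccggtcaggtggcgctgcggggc
Atp6v0d1 (chr8:105566037-105566092, minus strand): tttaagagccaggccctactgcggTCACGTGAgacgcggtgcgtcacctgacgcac
Atp6v0e (chr17:26676374-26676429, plus strand): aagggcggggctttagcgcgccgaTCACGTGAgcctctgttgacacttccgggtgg
Atp6v1a (chr16:44139360-44139415, minus strand): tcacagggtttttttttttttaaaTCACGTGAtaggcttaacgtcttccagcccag
A further CACGTG of Ctsd lies upstream of its stretch, and another window of Ctsa, at an upstream start site, holds neither motif. Ctsl, Gaa, Glb1, Naglu and Lgmn hold a single CACGTG. The windows of Man2b1 and Grn, which rose at least 2-fold at 48 h (below), are shown whole because neither motif occurs in them.
Man2b1 (chr8:85083019-85083318, plus strand): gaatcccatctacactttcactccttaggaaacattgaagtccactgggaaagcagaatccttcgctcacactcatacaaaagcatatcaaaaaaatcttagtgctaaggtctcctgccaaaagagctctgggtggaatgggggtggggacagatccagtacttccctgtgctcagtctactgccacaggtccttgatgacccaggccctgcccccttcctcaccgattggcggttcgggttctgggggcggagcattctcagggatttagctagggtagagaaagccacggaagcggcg
Grn (chr11:102430257-102430556, plus strand): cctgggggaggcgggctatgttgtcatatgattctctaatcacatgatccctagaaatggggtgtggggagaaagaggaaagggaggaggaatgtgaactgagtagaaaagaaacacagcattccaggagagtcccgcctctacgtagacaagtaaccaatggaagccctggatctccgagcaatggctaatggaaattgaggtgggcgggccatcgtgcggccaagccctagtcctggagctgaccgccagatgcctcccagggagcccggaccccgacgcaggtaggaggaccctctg
A match is a run of letters and not a binding site, and its absence here speaks only of this window.

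Lysosomal genes were mostly higher after doxycycline was withdrawn. At 24 h, 14 of the 42 tested genes rose (33.3%) and 0 fell, where 17.8% of all tested genes rose and 17.4% fell (edgeR quasi-likelihood test, Benjamini-Hochberg adjusted p under 0.05). At 48 h 23 rose (54.8%) and 3 fell (7.14%), against 23.4% and 23.9% of all tested genes. The median log2 fold change of the 42 genes was 0.27 at 24 h and 0.39 at 48 h, beside 0.03 and 0.01 over all tested genes. Both comparisons use the same ON libraries. OFF48 libraries also stood apart in makeup. Their 10 highest rows held 9.88% to 10.1% of counts against 6.92% to 7.47% in the other libraries, and ribosomal protein genes held 12.4% to 12.9% against 15.0% to 16.4%. Mitochondrial transcripts held 1.56% to 1.79% against 1.86% to 2.32%, and OFF48 replicate 2 had the fewest detected rows (11520). The part of these differences in the counts was not tested. Changes were moderate. At 48 h 3 of the 42 genes (Man2b1, Ctsh and Grn) rose at least 2-fold, as did 7.84% of all tested genes, and the largest fold was that of Ctsh at 3.47. The ON libraries alone did not carry Ctsh through the filter on low counts, which favours a rise.

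**Figure D1:**
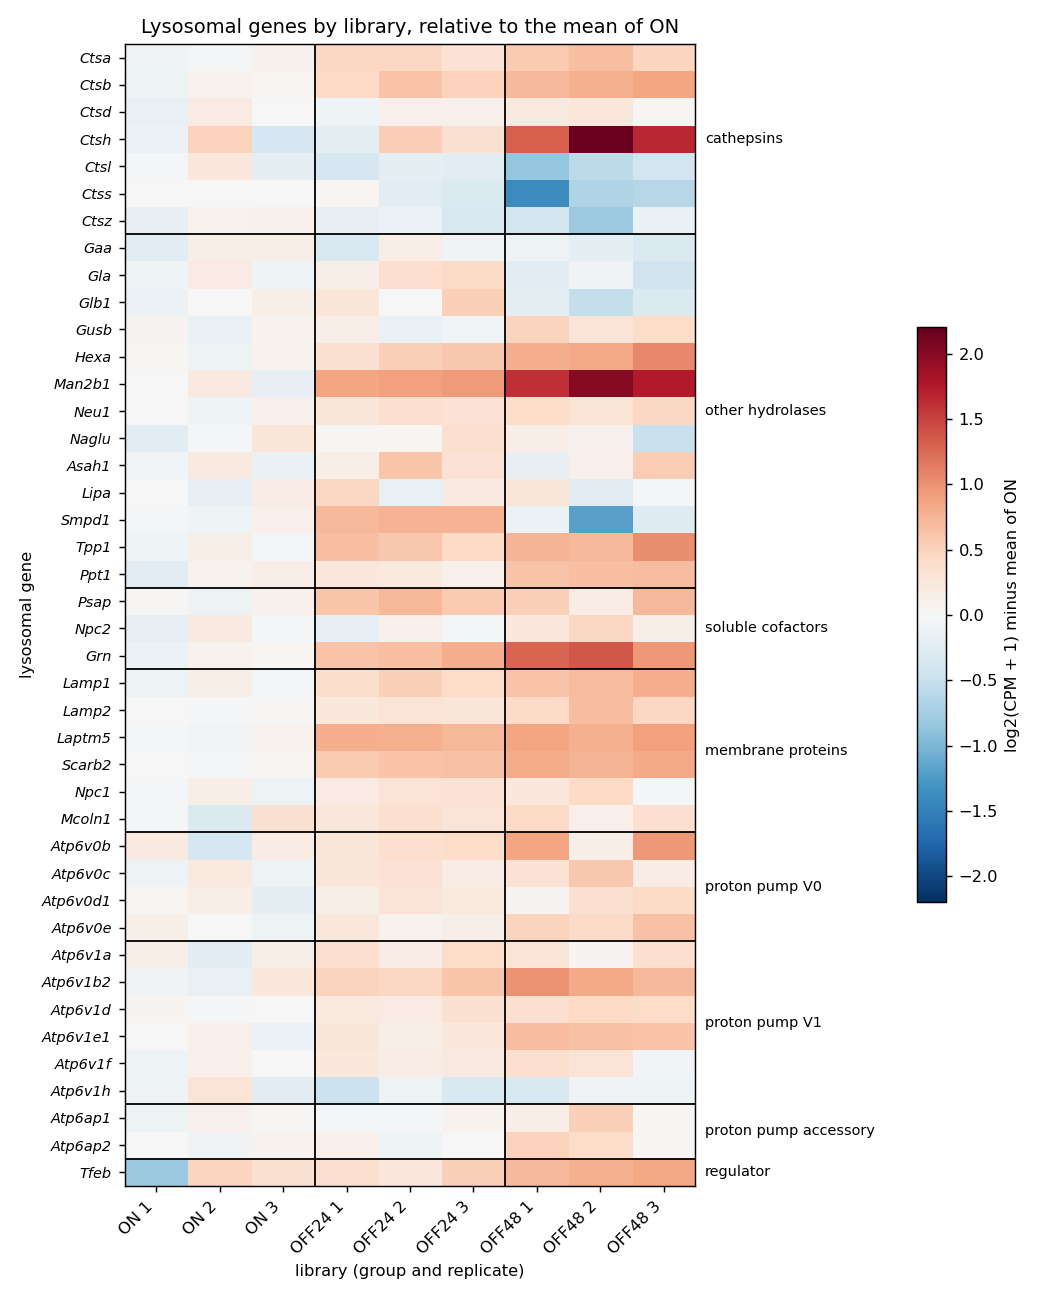
Level of the 42 tested lysosomal genes (rows, by class) in each of the 9 libraries (columns), as log2(CPM + 1) minus the mean of the 3 ON libraries. Red rows such as Man2b1, Grn and Laptm5 are high in all OFF libraries, while Ctsl and Ctss are blue in OFF48.

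The count of 0 falls at 24 h was also given by DESeq2 and limma-voom, and 2 genes (Ctsl and Atp6v1h) were lower at an unadjusted p under 0.05 in edgeR. Without ON replicate 3, both passed the adjusted threshold (Ctsl log2 -0.39, edgeR adjusted p = 0.0447, and Atp6v1h log2 -0.43, edgeR adjusted p = 0.0346). Without OFF24 replicate 2, Atp6v1h passed as well (log2 -0.45, edgeR adjusted p = 0.0484). Libraries of the groups did not overlap for 21 of the 42 genes at 24 h and 24 at 48 h, near the 49% and 52.5% of all tested genes.

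The cathepsins, proteases of the lysosome, moved in both directions. At 24 h 2 of 7 rose (28.6%), and at 48 h 3 rose and 3 fell (42.9% each). Of all tested genes, 17.8% rose at 24 h, and 23.4% rose and 23.9% fell at 48 h. Ctsb, a cysteine protease (mm10, chr14:63122462-63145923), stood at 75.8, 85.7 and 83.7 CPM in ON, 111, 127 and 116 CPM in OFF24 and 135, 141 and 149 CPM in OFF48. Its groups did not overlap, and each was higher than the one before. Ctsb rose by 0.53 ± 0.11 on the log2 scale (approximate standard error, SE) at 24 h (edgeR adjusted p = 0.000724) and by 0.79 ± 0.11 at 48 h (edgeR adjusted p = 5.64e-06). Its 3′ end overlaps that of Fdft1 on the other strand. Without a stated strand setting for the counting, reads of such pairs cannot be told apart. Fdft1, a squalene synthase, went the other way (log2 -0.47 ± 0.14 and -0.88 ± 0.15). Ctsa, a serine carboxypeptidase that also protects the sialidase Neu1 and the β-galactosidase Glb1, stood at 74.2, 77.1 and 84.1 CPM in ON, 108, 108 and 98.0 CPM in OFF24 and 117, 125 and 109.6 CPM in OFF48. All OFF libraries of Ctsa lay above all ON libraries, and it rose at 24 h (log2 0.42 ± 0.11, edgeR adjusted p = 0.00522) and at 48 h (0.57 ± 0.11, edgeR adjusted p = 0.000228).

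Ctsh, a cysteine protease that acts mainly as an aminopeptidase (mm10, chr9:90054152-90076089), changed at 48 h. Its level was 3.57, 6.14 and 2.86 CPM in ON, 3.34, 6.28 and 5.36 CPM in OFF24 and 11.4, 21.7 and 14.9 CPM in OFF48. The ON libraries held only 8 to 25 counts of it and overlapped with OFF24, while all OFF48 libraries, with 29 to 51 counts, lay above both groups. Ctsh passed the filter on low counts only with OFF libraries, which favours a rise. The log2 change was 0.24 ± 0.36 at 24 h (edgeR adjusted p = 0.64, not called) and 1.79 ± 0.31 at 48 h (edgeR adjusted p = 9.51e-05).

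The 3 cathepsins that fell at 48 h are all cysteine proteases. Ctsl (mm10, chr13:64359337-64370890) stood at 77.0, 92.4 and 69.1 CPM in ON, 60.6, 67.5 and 66.4 CPM in OFF24 and 43.3, 52.5 and 58.9 CPM in OFF48. Its OFF48 libraries were all below the other groups, and its log2 change at 48 h was -0.63 ± 0.14 (edgeR adjusted p = 0.000954). Ctss, which trims the invariant chain of MHC class II, is singled out after its values were seen. Its level was 11.2, 11.3 and 11.5 CPM in ON, 11.7, 9.42 and 8.94 CPM in OFF24 and 3.69, 6.75 and 7.0 CPM in OFF48, from 9 to 46 counts a library. Ctss was close to ON at 24 h and low in every OFF48 library (log2 -0.99 ± 0.26, edgeR adjusted p = 0.00447). Ctsz, a carboxypeptidase, went from 101 ± 10.8 CPM (SD, n = 3) with doxycycline to 75.1 ± 16.8 in OFF48, with overlapping libraries (log2 -0.40 ± 0.14, edgeR adjusted p = 0.0242). That call was lost without ON replicate 2 (edgeR adjusted p = 0.0626), ON replicate 3 (0.073), OFF48 replicate 1 (0.0651) or OFF48 replicate 2 (0.0925). The 3′ end of Ctsz overlaps Nelfcd on the other strand, which was not called (log2 -0.20 ± 0.24). Ctsd, the aspartic protease, was at 563 ± 67.6 CPM in ON, 578 ± 48.5 at 24 h and 626 ± 48.6 at 48 h, and was not called at either time.

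**Figure D2:**
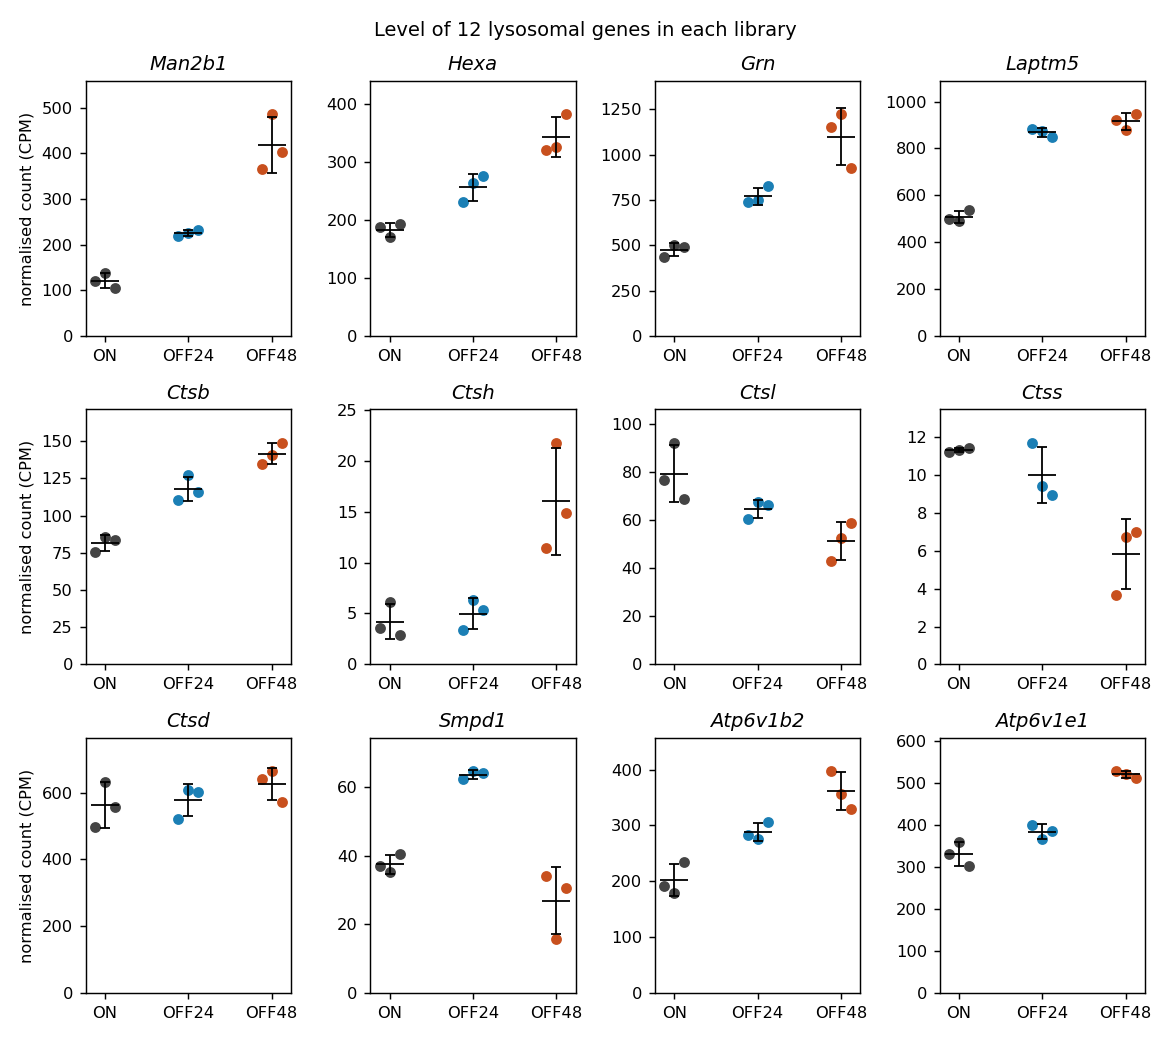
CPM of 12 lysosomal genes in each library (points), with the mean and SD of the 3 libraries of a group (bars), on linear axes from 0. Man2b1 climbed from group to group, Smpd1 was high in OFF24 alone, and Ctsl and Ctss were lowest in OFF48.

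Among the hydrolases of glycans and lipids and the peptidases outside the cathepsins, 5 of 13 tested genes rose at 24 h and 6 at 48 h. These are 38.5% and 46.2%, where 17.8% and 23.4% of all tested genes rose. Man2b1, the lysosomal α-mannosidase (mm10, chr8:85083270-85098282), changed most. Its level was 119.9, 138 and 106 CPM in ON, 219, 226 and 232 CPM in OFF24 and 367, 486 and 404 CPM in OFF48. The groups were fully apart, with log2 changes of 0.90 ± 0.12 at 24 h (edgeR adjusted p = 1.23e-05) and 1.78 ± 0.12 at 48 h (edgeR adjusted p = 8.16e-10), a 3.43-fold rise. Hexa, the α subunit of β-hexosaminidase, which degrades gangliosides, stood at 187, 169.7 and 192 CPM in ON, 231, 263 and 276 CPM in OFF24 and 320.4, 325 and 382 CPM in OFF48. Hexa also climbed at each step without overlap (log2 0.49 ± 0.11, edgeR adjusted p = 0.00163, then 0.91 ± 0.11, edgeR adjusted p = 1.21e-06).

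Tpp1, a peptidase that removes tripeptides from the amino end of proteins, stood at 96.7, 113 and 101 CPM in ON, 164, 157 and 140.3 CPM in OFF24 and 174, 169 and 211 CPM in OFF48. Every OFF library of Tpp1 was above every ON library (log2 0.57 ± 0.11, edgeR adjusted p = 0.000734, and 0.84 ± 0.11, edgeR adjusted p = 6.25e-06). Ppt1, a thioesterase that takes palmitate off proteins, stood at 44.9, 56.0 and 58.3 CPM in ON, 61.9, 61.2 and 57.2 CPM in OFF24 and 82.2, 84.0 and 84.6 CPM in OFF48. Ppt1 was not called at 24 h (log2 0.18 ± 0.12) and rose at 48 h (log2 0.66 ± 0.12, edgeR adjusted p = 0.000164). Its 3′ end overlaps Cap1 on the other strand, which was not called at 48 h (log2 0.11 ± 0.16). Gusb, the β-glucuronidase, followed the same order of calls (log2 -0.02 ± 0.11, then 0.40 ± 0.11, edgeR adjusted p = 0.00559). Neu1, the sialidase, rose at 24 h (log2 0.31 ± 0.10, edgeR adjusted p = 0.0159) and 48 h (log2 0.39 ± 0.10, edgeR adjusted p = 0.00232). The 24 h call of Neu1 was lost without ON replicate 1 (edgeR adjusted p = 0.0691), ON replicate 2 (0.0804), OFF24 replicate 2 (0.0849) or OFF24 replicate 3 (0.0684).

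Smpd1, the acid sphingomyelinase that makes ceramide, is described because its course differed from those above, a choice made after its values were seen. It stood at 37.0, 35.1 and 40.4 CPM in ON, 62.3, 64.7 and 64.0 CPM in OFF24 and 34.2, 15.7 and 30.6 CPM in OFF48. All OFF24 libraries were high and all OFF48 libraries were below ON. The rise at 24 h was called (log2 0.77 ± 0.16, edgeR adjusted p = 0.000808), and the difference between OFF48 and ON was not (log2 -0.38 ± 0.17, edgeR adjusted p = 0.0787). It passed without OFF48 replicate 1 (log2 -0.56, edgeR adjusted p = 0.0312). The remaining 6 tested hydrolases were not called at either time. These are Gaa, which degrades glycogen, Gla, the α-galactosidase, Glb1, the β-galactosidase, Naglu, which acts on heparan sulfate, Asah1, the acid ceramidase, and Lipa, the acid lipase. Their log2 changes ran from -0.08 (Gaa) to 0.37 (Asah1) at 24 h and from -0.32 (Glb1) to 0.21 (Asah1) at 48 h. Glb1, Neu1 and Ctsa form a complex in the lysosome. Ctsa and Neu1 rose at both times, while Glb1 stood at 32.8 ± 2.97 CPM in ON (SD, n = 3), 39.9 ± 7.36 at 24 h and 25.7 ± 3.02 at 48 h.

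Of the soluble cofactors, Grn and Psap rose at both times. Grn, which encodes progranulin, a secreted and lysosomal protein cut into granulins (mm10, chr11:102430315-102437048), stood at 435, 502 and 491 CPM in ON, 737, 749 and 825 CPM in OFF24 and 1149, 1222 and 923 CPM in OFF48. Its groups were apart at every step (log2 0.70 ± 0.11 at 24 h, edgeR adjusted p = 7.34e-05, and 1.20 ± 0.11 at 48 h, edgeR adjusted p = 4.2e-08). Psap, the precursor of the saposins that present lipids to hydrolases, stood at 249, 224 and 259 CPM in ON, 370.4, 404 and 364 CPM in OFF24 and 352, 273 and 399 CPM in OFF48. Psap was high in all OFF libraries, and OFF48 overlapped with OFF24 (log2 0.64 ± 0.12, edgeR adjusted p = 0.000411, and 0.49 ± 0.12, edgeR adjusted p = 0.0022). Npc2, a carrier of cholesterol in the lumen, stood at 765, 994 and 853 CPM in ON, 763, 938 and 849 CPM in OFF24 and 1014, 1185 and 952 CPM in OFF48. Npc2 overlapped with ON in both OFF groups and was not called at 24 h (log2 -0.03 ± 0.11) or 48 h (log2 0.27 ± 0.11, edgeR adjusted p = 0.0623). At 48 h it passed without ON replicate 2 (edgeR adjusted p = 0.0139) or OFF48 replicate 3 (0.0317).

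Of the 6 membrane proteins, 4 rose at 24 h and the same 4 at 48 h (66.7%), where 17.8% and 23.4% of all tested genes rose. Laptm5, a lysosomal membrane protein of blood cells (mm10, chr4:130913125-130936141), stood at 499, 489 and 536 CPM in ON, 881, 876 and 847 CPM in OFF24 and 923, 877 and 946 CPM in OFF48. Its OFF24 and OFF48 libraries overlapped and both lay far above ON (log2 0.77 ± 0.09, edgeR adjusted p = 2.44e-06, and 0.85 ± 0.09, edgeR adjusted p = 2.8e-07). Scarb2, which carries glucocerebrosidase to lysosomes, stood at 67.1, 66.3 and 70.1 CPM in ON, 102, 105 and 107 CPM in OFF24 and 120.4, 115 and 122 CPM in OFF48. Replicates of Scarb2 were tight and the groups apart (log2 0.63 ± 0.10, edgeR adjusted p = 0.000102, and 0.82 ± 0.10, edgeR adjusted p = 2.48e-06).

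Lamp1 and Lamp2 encode the most abundant glycoproteins of the lysosomal membrane. Lamp1, whose promoter stretch above holds 4 CACGTG, stood at 436, 514 and 462 CPM in ON, 615, 679.6 and 624 CPM in OFF24 and 726, 766 and 819.9 CPM in OFF48. Every OFF24 library was above ON, and every OFF48 library above OFF24 (log2 0.44 ± 0.10, edgeR adjusted p = 0.0017, and 0.71 ± 0.10, edgeR adjusted p = 7.56e-06). Its 3′ end overlaps Grtp1 on the other strand, which fell at 48 h (log2 -1.96 ± 0.56). Lamp2 stood at 293, 290.3 and 299.9 CPM in ON, 346, 361 and 354 CPM in OFF24 and 395, 473 and 402 CPM in OFF48, again without overlap between groups (log2 0.26 ± 0.10, edgeR adjusted p = 0.0412, and 0.52 ± 0.10, edgeR adjusted p = 0.000222). The 24 h call of Lamp2 lay at the threshold and was lost without any single ON library, any single OFF24 library or OFF48 replicate 1. Its edgeR adjusted p was then 0.13, 0.108 and 0.081 without ON replicates 1, 2 and 3, 0.0908, 0.143 and 0.133 without OFF24 replicates 1, 2 and 3, and 0.0562 without OFF48 replicate 1. With all libraries, DESeq2 did not call Lamp2 at 24 h (adjusted p = 0.0665). The call was also lost in edgeR with relative log expression scaling (adjusted p = 0.054), library size alone (0.0554) or no filter on low counts (0.129). The sterol exporter Npc1 (log2 0.27 ± 0.15 and 0.18 ± 0.15) and the calcium channel Mcoln1 (log2 0.35 ± 0.28 and 0.40 ± 0.28, from 8 to 25 counts a library) were not called. Npc1 overlaps Rmc1 on the other strand.

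Of the 12 proton pump genes, 1 rose at 24 h and 7 at 48 h, and their median log2 change went from 0.21 to 0.34. The shares are 8.33% and 58.3%, where 17.8% and 23.4% of all tested genes rose. At an unadjusted p under 0.05 in edgeR, 5 pump genes were higher and 1 was lower at 24 h. Between OFF24 and OFF48, 3 of the 12 rose. In the V1 sector, Atp6v1b2, the B subunit found in most tissues (mm10, chr8:69088646-69113711), stood at 191, 179.8 and 234 CPM in ON, 282, 275 and 306 CPM in OFF24 and 397, 357 and 330.1 CPM in OFF48. Its groups were apart, and it was the 1 pump gene called at 24 h (log2 0.52 ± 0.11, edgeR adjusted p = 0.00158). At 48 h it rose by 0.85 ± 0.11 on the log2 scale (edgeR adjusted p = 5.69e-06). Atp6v1e1, of the peripheral stalk, stood at 332, 359 and 303 CPM in ON, 399, 365 and 386 CPM in OFF24 and 527, 519.7 and 512 CPM in OFF48. Its OFF48 libraries were close to each other and above all others (log2 0.21 ± 0.10, not called, then 0.65 ± 0.10, edgeR adjusted p = 1.73e-05). The 24 h rise of Atp6v1e1 passed in edgeR with upper quartile scaling (adjusted p = 0.0446).

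Atp6v1d, of the central stalk, stood at 107, 99.2 and 101 CPM in ON, 119, 116 and 129.9 CPM in OFF24 and 131, 139 and 135 CPM in OFF48. The groups of Atp6v1d did not overlap, and in the fit used here only the 48 h difference passed (log2 0.25 ± 0.10, edgeR adjusted p = 0.0571, then 0.40 ± 0.10, edgeR adjusted p = 0.00321). Its 24 h rise passed in edgeR with upper quartile scaling (adjusted p = 0.0281), a minimum mean of 10 CPM (0.0367) or a term for replicate number (0.0403). Limma on the deposited log2 table called it at 24 h too (adjusted p = 0.04). Atp6v1a, the catalytic A subunit, stood at 482, 368 and 479 CPM in ON, 567, 492 and 579.6 CPM in OFF24 and 533, 457 and 569 CPM in OFF48. It was high in OFF24 but just missed the threshold (log2 0.30 ± 0.12, edgeR adjusted p = 0.0516), and it was not called at 48 h (log2 0.24 ± 0.12, edgeR adjusted p = 0.108). Without the shallow OFF48 replicate 2, Atp6v1a passed at both times (edgeR adjusted p = 0.0431 and 0.0363). It did so too with a term for replicate number (edgeR adjusted p = 0.0042 and 0.0219). At 24 h it also passed in limma-voom (adjusted p = 0.0471) and in edgeR fitted to ON and OFF24 alone (0.038). Upper quartile scaling (edgeR adjusted p = 0.0287) and a minimum mean of 10 CPM (0.0404) gave the same 24 h call. Atp6v1f was not called (log2 0.20 ± 0.11 and 0.21 ± 0.11), though it passed at 48 h without OFF48 replicate 3 (edgeR adjusted p = 0.0105). The end of its transcript is shared with another annotated gene, AC169506.3, so its level is uncertain. Atp6v1h was below 0 at both times (log2 -0.33 ± 0.14 and -0.20 ± 0.15) and was not called. Its 24 h fall passed in edgeR with no filter on low counts (adjusted p = 0.0294) or a term for replicate number (0.0251).

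In the V0 sector, 3 of 4 genes rose at 48 h, where 23.4% of all tested genes did. Atp6v0e stood at 255, 232 and 218 CPM in ON, 278, 246 and 255 CPM in OFF24 and 329, 315 and 365 CPM in OFF48. OFF48 was above both other groups, which overlapped (log2 0.52 ± 0.10, edgeR adjusted p = 0.000342). Atp6v0b and Atp6v0c encode proteolipids of the rotating ring. Atp6v0b stood at 146, 98.3 and 142 CPM in ON, 153, 164 and 169 CPM in OFF24 and 234, 140.2 and 248 CPM in OFF48, with ON replicate 2 and OFF48 replicate 2 low in their groups and OFF48 overlapping ON (log2 0.71 ± 0.19, edgeR adjusted p = 0.00711). At 24 h Atp6v0b passed without OFF48 replicate 2 (edgeR adjusted p = 0.0487 against 0.187 with all libraries). A fit to ON and OFF24 alone (edgeR adjusted p = 0.0488), no filter on low counts (0.0478) and a term for replicate number (0.0195) also gave that call. Atp6v0c stood at 916, 1145 and 913 CPM in ON, 1188, 1225 and 1108 CPM in OFF24 and 1230.2, 1479.5 and 1103 CPM in OFF48. ON replicate 2 overlapped with OFF48, and the 48 h call of Atp6v0c (log2 0.36 ± 0.12, edgeR adjusted p = 0.0159) was lost without ON replicate 1 (0.0804), ON replicate 3 (0.0797) or OFF48 replicate 2 (0.0886). Without ON replicate 2 (edgeR adjusted p = 0.0302) or with a term for replicate number (0.0179), Atp6v0c passed at 24 h. Atp6v0d1, which couples the ring to V1, stood at 72.2, 77.9 and 61.2 CPM in ON, 76.5, 85.4 and 81.9 CPM in OFF24 and 73.5, 89.2 and 94.5 CPM in OFF48. Its libraries overlapped (log2 0.27 ± 0.13, edgeR adjusted p = 0.082), and it passed at 48 h without ON replicate 2 (0.0431) or OFF48 replicate 1 (0.0266).

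Of the 2 accessory genes, 1 rose at 48 h, where 23.4% of all tested genes did. Atp6ap2, also known as the prorenin receptor, stood at 471, 443 and 498 CPM in ON, 508, 436 and 475 CPM in OFF24 and 667, 622 and 478 CPM in OFF48. It was level at 24 h (log2 0.01 ± 0.12) and rose at 48 h (log2 0.32 ± 0.12, edgeR adjusted p = 0.0277), with OFF48 replicate 3 inside the range of ON. That call was lost without ON replicate 1 (edgeR adjusted p = 0.0704), ON replicate 2 (0.0791), OFF48 replicate 1 (0.163) or OFF48 replicate 2 (0.0667). A fit to the ON and OFF48 libraries alone lost it too (edgeR adjusted p = 0.0513). Atp6ap1 stood at 268, 311 and 295 CPM in ON, 283, 284 and 306 CPM in OFF24 and 321, 418 and 297 CPM in OFF48, and its libraries overlapped at both times. Atp6ap1 was not called (log2 0.23 ± 0.12 at 48 h), but passed at 48 h without OFF48 replicate 3 (edgeR adjusted p = 0.0292).

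**Figure D3:**
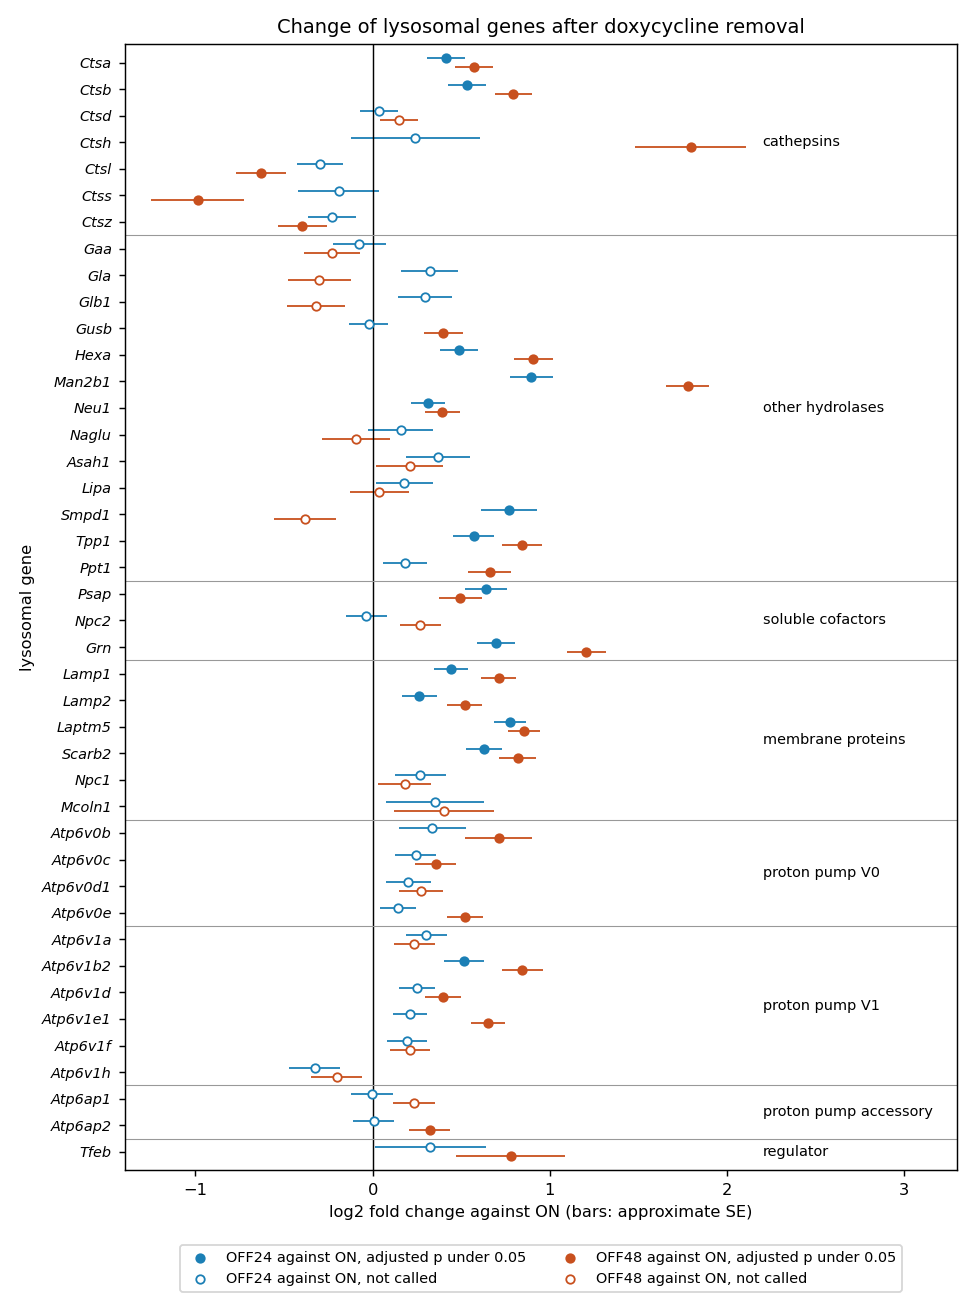
Log2 fold change against ON of the 42 tested genes at 24 h (blue) and 48 h (orange), with approximate SE; filled points have an adjusted p under 0.05. Membrane proteins are filled at both times for 4 of 6 genes, pump genes for 1 of 12 at 24 h and 7 of 12 at 48 h, and cathepsins lie on both sides of 0.

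Tfeb itself was low, from 11 to 38 counts a library, and passed the filter on low counts only with OFF libraries, which favours a rise. It stood at 2.81, 8.35 and 7.51 CPM in ON, 7.53, 6.91 and 8.64 CPM in OFF24 and 10.1, 10.5 and 11.1 CPM in OFF48, with ON replicate 1 far below the other ON libraries. The OFF48 libraries were above all others (log2 0.78 ± 0.31, edgeR adjusted p = 0.0434), and OFF24 was not called (log2 0.33 ± 0.32). Without ON replicate 1 the 48 h change of Tfeb was log2 0.40 (edgeR adjusted p = 0.224). Its edgeR adjusted p was 0.0534, 0.0523 and 0.0523 without OFF24 replicates 1, 2 and 3, and 0.0765, 0.0542 and 0.124 without OFF48 replicates 1, 2 and 3. The 48 h call of Tfeb was also lost in DESeq2 with all libraries (adjusted p = 0.0928). The same held for edgeR fitted to ON and OFF48 alone (adjusted p = 0.0674). Among the 37 genes with a promoter window, CACGTG occurred in 4 of the 20 that rose at 48 h, 8 of the 13 that were tested and not called, 1 of the 3 that fell (Ctsl) and the untested Lgmn. TCACGTGA occurred in 2 of the 20 (Ctsa and Atp6v0e) and in 5 of the 13 (Ctsd, Gla, Mcoln1, Atp6v0d1 and Atp6v1a).

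Set side by side, the classes differed in how much their summed level moved. Summed CPM of the cathepsins ran over 829 to 1014 in ON, 905 to 1019 at 24 h and 1002 to 1069 at 48 h, and Ctsd made up 60.5% of that sum. These ranges overlap. Membrane proteins summed to 1329 to 1402, 1975 to 2065 and 2206 to 2326 CPM, and other hydrolases to 1149.5 to 1221, 1516 to 1559 and 1821 to 1942 CPM, with no overlap in either class. Within the hydrolase sum, Man2b1 alone went from a mean of 121 CPM in ON to 419 CPM in OFF48. Of the 13 tested hydrolases, 7 were not called at 48 h and 5 had a log2 change below 0. Soluble cofactors summed to 1449.5 to 1719, 1870 to 2091 and 2274 to 2679 CPM, also without overlap. The pump genes summed to 3712 to 3874, 4249 to 4423 and 4619 to 5149.5 CPM. The sums of V0 and of V1 were each apart between groups, while those of the accessory genes overlapped. The ratio of the cathepsin sum to the pump sum was 0.223 to 0.262 in ON, 0.205 to 0.240 in OFF24 and 0.203 to 0.217 in OFF48. Median log2 changes at 48 h were 0.15 for cathepsins, 0.21 for other hydrolases, 0.49 for soluble cofactors, 0.62 for membrane proteins and 0.34 for the pump, beside 0.01 over all tested genes. Differences between classes were not tested.

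**Figure D4:**
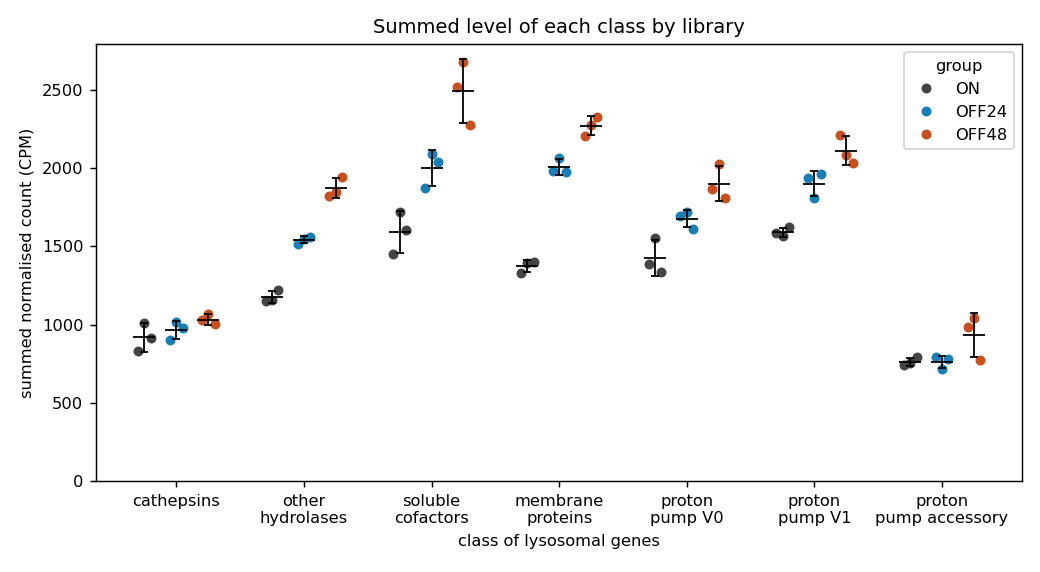
Summed CPM of each class of lysosomal genes in each library (points), with the mean and SD of the 3 libraries of a group (bars). The groups overlap in the sums of the cathepsins and of the accessory pump genes, and are fully apart in the other classes shown.

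The comparison of OFF48 with OFF24 asks which genes went on changing on the second day. Of the 42 genes, 9 rose and 4 fell, against 9.99% and 11.2% of all tested genes (21.1% in either direction), and the groups did not overlap for 23 genes against 38% of all tested genes. Those that rose were Ctsh (log2 1.55 ± 0.31), Man2b1 (0.88 ± 0.12), Grn (0.51 ± 0.11), Ppt1 (0.48 ± 0.12), Atp6v1e1 (0.44 ± 0.10), Gusb (0.42 ± 0.11), Hexa (0.42 ± 0.11), Atp6v0e (0.38 ± 0.10) and Atp6v1b2 (0.33 ± 0.11). Smpd1 fell most (log2 -1.15 ± 0.17, edgeR adjusted p = 6.32e-05), followed by Ctss (-0.79 ± 0.28), Gla (-0.62 ± 0.18) and Glb1 (-0.61 ± 0.16). Gla went from 27.7 ± 3.08 CPM (SD, n = 3) in OFF24 to 18.6 ± 2.49 in OFF48, around its level of 22.2 ± 2.65 in ON.

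Several of these calls rested on single libraries. Gusb (edgeR adjusted p = 0.057) and Atp6v0e (0.0555) were lost without OFF24 replicate 2, and Glb1 (0.11) without OFF24 replicate 3. Gla was lost without OFF24 replicate 2 (edgeR adjusted p = 0.0601), OFF24 replicate 3 (0.0838) or OFF48 replicate 3 (0.104). Atp6v1b2 was lost without any OFF24 library (edgeR adjusted p = 0.106, 0.131 and 0.0609 without replicates 1, 2 and 3) or OFF48 replicate 1 (0.151). Ctss was lost without any 1 of 8 libraries (edgeR adjusted p = 0.0513 to 0.247) and kept without OFF48 replicate 3. The number of rises went to 14 without ON replicate 2, and the number of falls to 1 without OFF24 replicate 3. In edgeR the 6 membrane proteins were not called between the OFF groups, with log2 changes from -0.09 (Npc1) to 0.27 (Lamp1). Rises in Tpp1, Npc2, Lamp1, Lamp2 and Atp6ap2 also passed without ON replicate 2. The same held for Npc2, Lamp2, Atp6ap1 and Atp6ap2 without OFF48 replicate 3, for Tpp1 and Atp6v0b without OFF48 replicate 2, for Lamp1 without OFF48 replicate 1 and for Npc2 without OFF24 replicate 2 (edgeR adjusted p from 0.00386 to 0.0499). Lamp1 also passed with all libraries in DESeq2 (adjusted p = 0.0495), in limma on the deposited log2 table (0.0233), and in edgeR with relative log expression scaling (0.0469) or library size alone (0.0478). Other calls were lost with all libraries. DESeq2 did not call Ctss (adjusted p = 0.136) or Gla (0.0576), and limma on the deposited log2 table did not call Ctss (0.0694). In edgeR, Ctss was lost with library size alone (adjusted p = 0.0532) and Atp6v1b2 with upper quartile scaling (0.0783).

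Other genes of the pathway, from lists chosen for their function, were read the same way, against the background above of 17.8% rises and 17.4% falls at 24 h and 23.4% and 23.9% at 48 h. Of 27 tested hydrolases outside the set, 9 rose at 24 h, and at 48 h 15 rose and 1 fell. Arsb, a sulfatase of dermatan sulfate, went from 4.23 ± 0.259 CPM in ON (SD, n = 3) to 31.1 ± 9.14 CPM at 48 h (log2 2.91 ± 0.25), and Galc, a galactosylceramidase, rose by 1.23 ± 0.20 on the log2 scale. Of 5 tested proteases outside the set, 3 rose and 2 fell at 48 h. Ctso, counted among the rises, had 3 to 10 counts per ON library. It passed the filter on low counts only through OFF libraries, which favours a rise. Ctsc, which activates the serine proteases of myeloid granules, fell from 60.6 ± 6.87 CPM to 31.8 ± 7.20 at 24 h and 11.8 ± 4.59 at 48 h (log2 -2.30 ± 0.21 at 48 h, edgeR adjusted p = 5.59e-08). The carboxypeptidase Scpep1 also fell (log2 -1.54 ± 0.27), and the peptidases Prcp (0.90 ± 0.15) and Dpp7 (1.06 ± 0.24) rose.

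Of 6 tested pump subunits outside the set, 3 rose and 2 fell at 48 h. Tcirg1, the a3 subunit of V0, went from 58.9 ± 11.5 to 148 ± 29.7 CPM (log2 1.36 ± 0.15, edgeR adjusted p = 6.8e-07), and Atp6v1c1 rose by 0.79 ± 0.12. Atp6v1g1 went the other way, from 265 ± 3.11 to 155 ± 9.49 CPM (log2 -0.76 ± 0.10, edgeR adjusted p = 2.56e-06). Atp6v1g2, also counted as a rise, had 3 or fewer counts in each ON library (0.501 ± 0.434 CPM in ON, 5.36 ± 1.24 in OFF48). It passed the filter on low counts only through OFF libraries, which favours a rise. Of 24 other membrane proteins, 6 rose (25%) and 3 fell (12.5%) at 24 h, near the background, and 10 rose (41.7%) at 48 h. The amino acid carrier Slc36a1 (log2 1.52 ± 0.11), the cation channel Tpcn1 (0.90 ± 0.16), Cln3 (0.85 ± 0.15) and Glmp (0.54 ± 0.12) had the smallest p-values among them and rose.

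Marker lists of myeloid cells also changed, each with its own course. Of all tested genes, 17.8% rose and 17.4% fell at 24 h, and 23.4% rose and 23.9% fell at 48 h. Of 10 genes of myeloid identity, all tested, 7 rose at 24 h and 8 at 48 h, and their summed level was 2481 to 2783 CPM in ON, 4041 to 4638 at 24 h and 4969 to 5834 at 48 h. Of 10 tested genes of neutrophil maturation, 3 rose at 24 h and 9 at 48 h, with sums of 12657 to 15241, 14299 to 15170 and 51305 to 58852 CPM, of which S100a8 made up 63.1%. The sums of ON and OFF24 overlapped. Of 6 tested genes of monocytes and macrophages, 6 rose at 24 h, and at 48 h 5 rose and 1 fell, with sums of 179.6 to 259, 355 to 376 and 203 to 241 CPM. Ccr2, the gene that fell at 48 h (log2 -0.93 ± 0.18), made up 66.5% of that sum. Csf3r, Ltf and Mpeg1, counted among the rises of these lists, had 5 to 7, 1 to 7 and 7 to 16 counts per ON library. These genes passed the filter on low counts only through OFF libraries, which favours a rise. The part of these programs in the lysosomal changes was not tested. In bulk RNA, more cells of a type and more RNA per cell cannot be told apart. Markers of most other cell types were low. Lymphoid markers summed to at most 1.67 CPM and hepatocyte and stromal markers to 8.16 CPM in any library, and the sum of erythroid markers averaged 0.405, 0.955 and 0.821 CPM in ON, OFF24 and OFF48, with Hbb-bs, Alas2, Cd8a, Alb and Ttr at 0 counts throughout. Those of megakaryocytes, mast cells and basophils summed to between 9.75 and 29.5 CPM, with Mcpt8 making up 53.0%. Of the 2 tested, Mcpt8 rose at 24 h (log2 1.55 ± 0.25) and 48 h (0.82 ± 0.28), Gata2 fell at 48 h (-1.76 ± 0.40), and both fell between OFF24 and OFF48. Their part in the lysosomal changes was not tested either.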

How the data were processed

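3′ mRNA libraries (Lexogen QuantSeq, per the labels' protocols) were read from the deposited table of whole-number counts per gene symbol, with 1 column per library. A deposited table of log2 values, normalised by the authors with voom and limma per its name, served as an alternative. The submitters' processing notes name HISAT2 2.0.4, Subread 1.5.0-p3, featureCounts, limma 3.42.2 and mm10. The sources used here give neither the annotation nor the strand setting. Counts were tested with edgeR 4.0.16 (R 4.3.3), using filterByExpr, TMM scaling and a robust quasi-likelihood fit of 3 group means to 9 libraries (6 residual degrees of freedom), with Benjamini-Hochberg adjustment over 10215 genes at 0.05. The SE is the log2 fold change divided by the square root of F. DESeq2 1.42.0 and limma 3.58.1 were alternatives. Positions and 3′ ends (last 400 bases, BLAST 2.17.0, 95% identity over 100 bases) come from GENCODE M21, and promoters from RefSeq (GRCm38.p6). The genes and lists were chosen with earlier results of these data known. Values per library are given for up to 4 genes of each class with the smallest p against ON, for Tfeb and for the untested Lgmn, and for Ctss and Smpd1, which were added after their values were seen. Pathway lists name up to 4, and some of their genes are not reported here.

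Total counts per library were 1329296 to 4038456. Floors of 3 counts cover counting error alone, as no molecular identifiers are recorded. Replicate libraries differed beyond sampling noise (chi-square divided by its degrees of freedom from 1.99 to 6.99), and each library was counted once.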

Additional observations from a re-analysis of the deposited data

Results flagged for a closer look

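For 13 of the 42 tested genes the change after 24 h without doxycycline differed from the change after 48 h, by the edgeR test of OFF48 against OFF24 (adjusted p under 0.05), where 21.1% of all tested genes did. The log2 differences above 0 were 1.55 for Ctsh, 0.88 for Man2b1, 0.51 for Grn, 0.48 for Ppt1, 0.44 for Atp6v1e1, 0.42 for Gusb, 0.42 for Hexa, 0.38 for Atp6v0e and 0.33 for Atp6v1b2. Those below 0 were -1.15 for Smpd1, -0.79 for Ctss, -0.62 for Gla and -0.61 for Glb1. The log2 changes of Smpd1, Gla and Glb1 against ON were above 0 at 24 h and below 0 at 48 h, of which only the 24 h rise of Smpd1 passed the test. With 3 libraries a group, single libraries were not tested for standing apart.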

How the results depend on the processing

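No lysosomal gene reversed a call under the 19 alternatives run. Of 14 calls at 24 h 12 held throughout, of 26 at 48 h 22 did, and of 13 between OFF48 and OFF24 7 did. Calls lost somewhere were those of Neu1 and Lamp2 at 24 h, Ctsz, Atp6v0c, Atp6ap2 and Tfeb at 48 h, and Ctss, Gla, Glb1, Gusb, Atp6v0e and Atp6v1b2 between the OFF groups. Genes gained in some alternative numbered 7, 6 and 8. Falls at 24 h went from 0 to 2 with no filter on low counts and to 2 with the replicate block, which raised the rises between OFF48 and OFF24 from 9 to 15. DESeq2 gave 2 falls there against 4. A minimum mean of 10 CPM left 38 of the 42 genes. Same-numbered libraries did not deviate together in every pair (correlations -0.022 to 0.406), and 4 of 9 libraries matched their own number best. Over all tested genes the block raised the rises from 1822 to 2185 at 24 h and from 1020 to 1314 between the OFF groups. These few libraries cannot settle whether same-numbered libraries are paired, so the block is given as an alternative only.

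Leaving out each library gave 12 to 16 rises and 0 to 2 falls at 24 h, 20 to 25 and 2 to 3 at 48 h, and 7 to 14 and 1 to 3 between the OFF groups. Over all tested genes the ranges were 1355 to 1913 rises and 1491 to 1987 falls at 24 h, 2065 to 2418 and 2115 to 2427 at 48 h, and 718 to 1217 and 788 to 1193 between the OFF groups. Depth limits Ctsh, Ctss, Mcoln1, Tfeb and Lgmn, which have few counts.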

Other observations

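Genes of autophagy, which delivers cytoplasm to lysosomes, and of enzyme sorting were also read. Of 19 autophagy genes, 7 rose (36.8%) and 1 fell (5.26%) at each time, where 17.8% of all tested genes rose and 17.4% fell at 24 h and 23.4% and 23.9% at 48 h. Map1lc3b, the LC3B protein of autophagosome membranes, went from 99.0 ± 9.36 CPM in ON (SD, n = 3) to 173 ± 7.21 at 24 h and 149 ± 26.1 at 48 h. The kinase gene Ulk1 rose (log2 0.89 ± 0.16 at 24 h and 0.92 ± 0.17 at 48 h), as did Map1lc3a (0.99 ± 0.19 and 1.48 ± 0.19). The related Gabarapl1 fell from 34.8 ± 3.90 to 9.42 ± 1.94 CPM (log2 -1.81 ± 0.19, edgeR adjusted p = 3.12e-07). Of 14 tested sorting genes, 1 rose (7.14%) and 2 fell (14.3%) at 24 h, shares below those of all tested genes, and 5 rose (35.7%) and 2 fell (14.3%) at 48 h. Sort1, a receptor that carries prosaposin and other cargo to lysosomes, rose at both times (log2 0.73 ± 0.10 and 1.04 ± 0.10). Gnptab and Gnptg, subunits of the enzyme that tags hydrolases for the lysosome, rose at 48 h (log2 0.63 ± 0.12 and 1.06 ± 0.21), and the clathrin adaptor subunit Ap1s1 fell (-0.79 ± 0.13).

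Among 9 relatives and regulators of TFEB, 3 rose (33.3%) and 1 fell (11.1%) at 24 h, and 4 rose (44.4%) and 2 fell (22.2%) at 48 h. Of all tested genes, 17.8% and 17.4% did at 24 h, and 23.4% and 23.9% at 48 h. Libraries of the relatives Tfe3, Mitf and Tfec overlapped with ON at both times. In ON, OFF24 and OFF48, Tfec stood at 196 ± 29, 219 ± 28 and 219 ± 18 CPM (SD, n = 3). Tfe3 stood at 24.4 ± 3.0, 23.3 ± 3.7 and 30.3 ± 11.2 CPM, and Mitf at 8.6 ± 2.6, 11.1 ± 2.4 and 7.7 ± 2.1 CPM. Fnip1 and Fnip2, partners of folliculin in signalling from the lysosome to TFE factors, rose at 48 h (log2 1.05 ± 0.13 and 1.02 ± 0.22). Zkscan3, described as a repressor of autophagy genes, rose as well (log2 0.61 ± 0.13), and Ywhaz, a 14-3-3 protein, fell (-0.29 ± 0.09).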
